A study of Mus musculus with 12 samples.

Results

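Regulatory T cells of the mouse brain were described as the CD4 T cells that held RNA of Foxp3, the transcription factor that defines the lineage. A barcode belonged to them when it held at least 500 genes and at most 10% mitochondrial UMIs (unique molecular identifiers, each standing for 1 counted RNA molecule), at least 1 Cd4 UMI, no UMI of Cd8a, Cd8b1 or Trdc, and at least 1 Foxp3 UMI. Of 18374 barcodes, 17962 passed the first 2 limits, 2914 of these were CD4 T cells, and 120 CD4 T cells were Foxp3+. The members were thus chosen by their own counts of Foxp3, Cd4, Cd8a, Cd8b1 and Trdc, and values of these genes are descriptions. The other 2794 CD4 T cells, called Foxp3- cells, were the comparison.

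The T cells came from brains of 9-month-old female mice of 4 genotypes, littermates from a cross of hemizygous PS19 with hemizygous 5XFAD animals. 5XFAD founders were congenic on C57BL6 and carry transgenes for mutant human amyloid precursor protein and presenilin, driven in neurons by the Thy1 promoter, and deposit amyloid. PS19 founders were B6C3F1/J and express mutant human tau from the mouse prion protein promoter. WT mice carried neither transgene set, 5XFAD mice the amyloid set, PS19 mice tau, and PS-5X mice both, each in the hemizygous state. Cells stained for CD4, CD8 or the γδ receptor were sorted after collagenase digestion and Percoll, and cells of several mice were pooled before loading. WT-1 pooled 10 mice, WT-2 8, 5XFAD-1 4, 5XFAD-2 3, PS19 4 and PS-5X 4, and no barcode could be traced to an animal. WT-2 and 5XFAD-2 shared one sequencing run and the other pools another. Below, values of pools follow the order WT-1, WT-2, 5XFAD-1, 5XFAD-2, PS19 and PS-5X, "with amyloid" means 5XFAD-1, 5XFAD-2 and PS-5X, and "with tau" means PS19 and PS-5X.

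Regulatory T cells restrain other lymphocytes by taking up interleukin 2 through the high-affinity receptor chain CD25 (Il2ra), by removing costimulatory ligands through CTLA-4, and by releasing cytokines such as interleukin 10. Those that settle in tissues acquire the interleukin 33 receptor ST2 (Il1rl1) and the growth factor amphiregulin (Areg), which is tied to repair. In the brain they are rare and have been studied mainly after injury and in demyelination.

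The 6 pools held 3, 36, 9, 22, 22 and 28 Foxp3+ cells, so WT-1 and 5XFAD-1 added few. Their sums held 26373 to 264578 UMIs, against 980023 to 4296026 in the Foxp3- sums, and the median cell held 5873.5 UMIs against 5567. WT-1 also stood apart because it shared receptors with other pools. Of Foxp3- cells, 25 in WT-1, 105 in 5XFAD-1 and 22 in PS19 carried a receptor that a cell of another pool carried too (identical V genes and CDR3 bases), while no Foxp3+ cell did. Across the pools, 166 barcode sequences occurred more than once, 2 of them among Foxp3+ cells. Results that rest on WT-1 are given without it as well.

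Foxp3 RNA was read in 4.12% of CD4 T cells (120 of 2914; Clopper-Pearson 95% interval 3.43 to 4.90, which covers counting error only). The shares were 2.19%, 5.38%, 1.93%, 6.32%, 4.55% and 3.46% in the order above. The intervals were wide, from 0.454 to 6.27% in WT-1 and from 4.00 to 9.42% in 5XFAD-2. CD8 T cells, which as a class lack the gene, had a Foxp3 UMI in 0.704% of cells (82 of 11647, 0.560 to 0.873) at a median of 6394 UMIs per cell, and at that share 2914 CD4 T cells would hold 20.5 such cells. When every cell was thinned to 3000 UMIs, 55 of 2038 CD4 T cells kept a Foxp3 UMI, and the pools stood at 1.90%, 3.14%, 0.872%, 4.53%, 2.46% and 2.94%. The pools with the lowest share, WT-1 and 5XFAD-1, were those with the fewest members, and their CD8 shares were the highest, 0.947% and 1.04%. 5XFAD-2, with the highest share, had the lowest CD8 share, 0.434%. Thinned to 3000 UMIs, the CD8 shares of WT-1, 5XFAD-1 and 5XFAD-2 were 0.683%, 0.200% and 0.628%. How many members of WT-1 and 5XFAD-1 were such background was not tested.

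**Figure D1:**
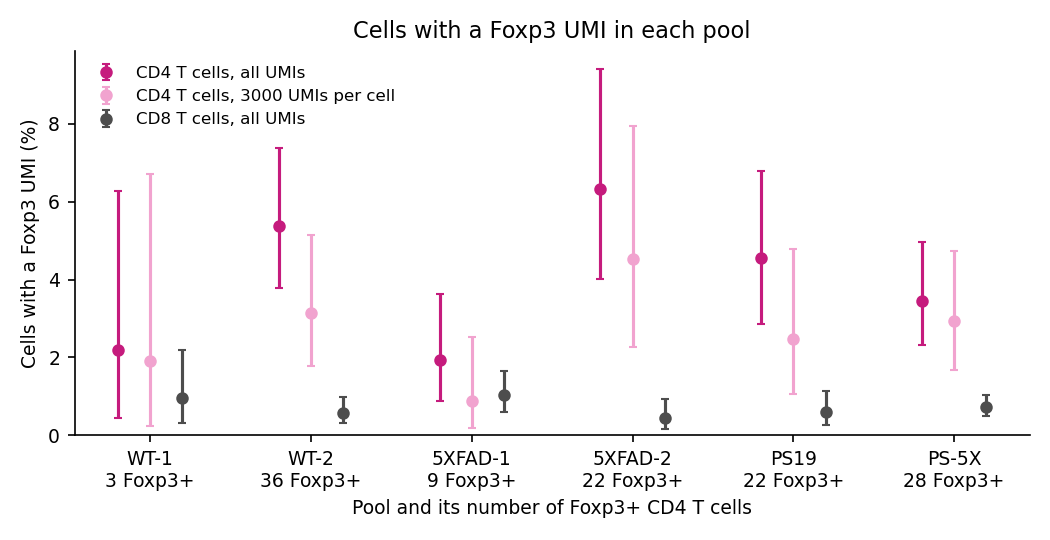
Percent of cells with a Foxp3 UMI (y axis) in each of the 6 pools (x axis), for CD4 T cells with all UMIs, CD4 T cells thinned to 3000 UMIs per cell and CD8 T cells, with Clopper-Pearson 95% intervals. The lowest CD4 share is 1.93% (5XFAD-1) and the highest 6.32% (5XFAD-2), while CD8 shares lie between 0.434% and 1.04%.

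The share of Foxp3+ cells did not differ by transgene beyond the spread between pools. It was 3.90 ± 2.23% (SD, n = 3) with amyloid and 4.04 ± 1.65% (n = 3) without, -0.135 percentage points apart (p = 0.9 by an exact two-sided permutation of the pools, where the smallest p is 0.1). Taken by sequencing run, the difference was -0.673 points among the 4 pools run together and 0.941 between WT-2 and 5XFAD-2, and without WT-1 it was -1.06 (exact p = 0.6). With tau the share was 4.00 ± 0.767% (n = 2) and without tau 3.96 ± 2.23% (n = 4; exact permutation p = 1, smallest 0.0667). WT-2 and 5XFAD-2 held 5.85 ± 0.665% and the 4 pools of the other run 3.03 ± 1.21% (difference 2.82 points, exact permutation p = 0.133). Each p-value here measures the spread between pools of mice, not between single mice.

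Most members carried other marks of the lineage. A UMI of Ikzf2, the transcription factor Helios, was present in 90 of 120 Foxp3+ cells (75%) and in 14.9% of Foxp3- cells. Il2ra was read in 57 cells (47.5%) against 6.66%, Tnfrsf4 (the costimulatory receptor OX40) in 89 (74.2%) against 28.0%, and Tnfrsf18 (GITR) in 96 (80%) against 47.3%. All 4 of these markers were present together in 41 Foxp3+ cells (34.2%) and in 18 Foxp3- cells (0.644%), and none of the 4 in 7 Foxp3+ cells (5.83%) and 1125 Foxp3- cells (40.3%). As a class the members thus carried the markers of regulatory T cells, and the 7 cells without any of the 4 were kept by the rule alone. Foxp3 itself, which chose the cells, stood at 255, 560, 360, 643, 598 and 723 CPM (UMIs relative to the library total, scaled with TMM) in the Foxp3+ sums.

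The number of Foxp3 UMIs per member ran from 1 to 16 with a median of 3. At the edge of the rule lay 27 cells with 1 Foxp3 UMI, beside 39 with 2 or 3 and 54 with 4 or more, and beside the 2794 with none. Ikzf2 stood at 571 CPM over the cells with 1 Foxp3 UMI, beside 551 and 684 CPM in the higher classes, and 66.7% of these cells had an Ikzf2 UMI against 14.9% of cells with no Foxp3. Il2ra stepped up, from 21.9 CPM at no Foxp3 UMI to 61.9, 99.7 and 205 CPM, and so did Tnfrsf4, from 147 to 392, 620 and 876 CPM. Over the classes of 0, 1, 2 to 3 and 4 or more Foxp3 UMIs, the integrin gene Itgae stood at 19.1, 34.4, 160 and 300 CPM. Il1rl1 stood at 2.98, 13.8, 43.4 and 68.2 CPM. The lectin receptor gene Klrg1 stood at 18.2, 6.88, 56.4 and 200 CPM, so lower at 1 Foxp3 UMI than at none. Areg was highest in the class of 2 to 3 (33.8, 61.9, 555 and 426 CPM). Lrrc32, the gene of the TGF-β carrier GARP, stood lower in the classes of 0 and 1 than in the higher ones (1.90, 20.6, 208 and 198 CPM). In the opposite direction, Ccl5, a chemokine of memory and cytotoxic T cells, stood at 2934, 612, 355 and 194 CPM, and Cxcr6, the receptor for CXCL16, at 325, 227, 82.4 and 47.5 CPM. The median UMIs per cell of the classes were 5567, 4475, 5673 and 7134, so among members the classes with more Foxp3 UMIs were deeper, and the part of depth in these steps was not tested.

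**Figure D2:**
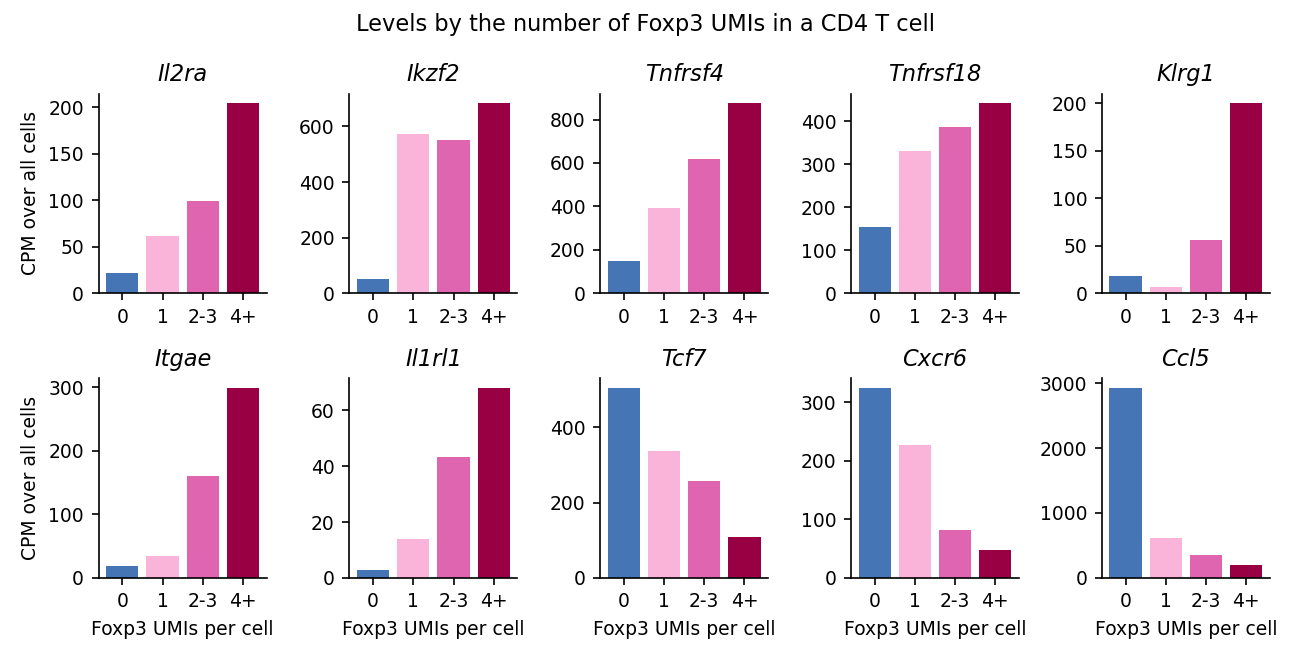
CPM over all cells of a class (y axis, linear, from 0) for CD4 T cells with 0, 1, 2 to 3 or 4 and more Foxp3 UMIs (x axis; 2794, 27, 39 and 54 cells), 1 panel a gene. Bars are pooled values without an error; Ikzf2 is already high at 1 Foxp3 UMI, while Klrg1, Itgae and Il1rl1 reach 200, 300 and 68.2 CPM in cells with 4 or more.

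Foxp3+ cells were mostly clones of 1 cell. A receptor was read in 110 of 120 Foxp3+ cells (91.7%) and in 2602 of 2794 Foxp3- cells (93.1%). The 110 cells fell into 109 of the authors' clonotypes, 105 of them seen in no other cell of their pool. Only 5 cells (4.55%, interval 1.49 to 10.3) belonged to clones of 2 or more cells, against 487 Foxp3- cells (18.7%, 17.2 to 20.3), and the largest clone with a Foxp3+ cell held 3 cells where the largest with a Foxp3- cell held 53. The 4 expanded clones are shown by the CDR3 nucleotides of both chains, since their mixed membership is the clonal link between the classes. Sequences read 5′ to 3′, and capitals mark the bases between the first 3 and the last 3 codons, where the V and J segments are joined, in the β chain with a D segment between.
5XFAD-1 clone, β chain (TRBV12-2+TRBV13-2, TRBJ1-2): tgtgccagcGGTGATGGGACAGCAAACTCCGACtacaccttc
5XFAD-1 clone, α chain (TRAV12D-2, TRAJ49): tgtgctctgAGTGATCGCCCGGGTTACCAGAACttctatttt
5XFAD-2 clone, β chain (TRBV19, TRBJ2-1): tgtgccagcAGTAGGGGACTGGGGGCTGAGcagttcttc
5XFAD-2 clone, α chain (TRAV6-6, TRAJ34): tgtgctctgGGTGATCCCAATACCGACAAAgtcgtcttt
PS-5X clone 1, β chain (TRBV26, TRBJ2-4): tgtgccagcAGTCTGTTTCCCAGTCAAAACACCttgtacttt
PS-5X clone 1, α chain (TRAV8D-1, TRAJ34): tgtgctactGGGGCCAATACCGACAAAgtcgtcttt
PS-5X clone 2, β chain (TRBV19, TRBJ2-5): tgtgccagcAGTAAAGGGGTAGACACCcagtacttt
PS-5X clone 2, α chain (TRAV7-6, TRAJ56): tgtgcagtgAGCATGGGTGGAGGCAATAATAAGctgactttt

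The 4 clones differed in their members. The 5XFAD-1 clone joined 1 Foxp3+ cell, with 1 Foxp3 UMI among 13727 UMIs, to 2 Foxp3- cells of 9993 and 30460 UMIs. The 5XFAD-2 clone joined a Foxp3+ cell with 3 Foxp3 UMIs to a Foxp3- cell of 3620 UMIs. PS-5X clone 1 was made of 2 Foxp3+ cells, with 9 Foxp3 UMIs and 1. PS-5X clone 2 held a Foxp3+ cell with 2 Foxp3 UMIs and a barcode with 3 Foxp3 UMIs that had no Cd4 UMI and so lay outside the rule. No joining stretch was shared between the clones, and TRBV19 and TRAJ34 each occurred in more than 1 of them.

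The share of cells in expanded clones was lower in Foxp3+ than in Foxp3- cells in 6 of 6 pools. It was 0%, 0%, 14.3%, 5.26%, 0% and 11.1% in Foxp3+ cells and 11.7%, 16.5%, 33.0%, 13.7%, 13.1% and 18.7% in Foxp3- cells. The means were 5.11 ± 6.30% and 17.8 ± 7.88% (SD, n = 6), so -12.7 percentage points apart (p = 0.03125 by an exact two-sided permutation that flips signs over pools, the smallest that 6 pools allow). Without WT-1 the difference was -12.9 points (exact p = 0.0625, the smallest for 5 pools). Without cells whose receptor also occurred in another pool it was -6.68 points (exact permutation p = 0.09375), because Foxp3- cells of WT-1 then stood at 0.971%, of 5XFAD-1 at 11.9% and of PS19 at 9.00%, and 5XFAD-1 turned the other way. With 7 to 34 Foxp3+ receptors in each pool but WT-1, which had 3, a share of 0 allows up to 8.82% in WT-2 and 15% in PS19, so single pools set loose limits. The p of 0.03125 by sign flips needs the same sign in all 6 pools. In WT-1 that sign says little, since 0 of 3 cells has an interval up to 70.8%, and the share of 5XFAD-1 rests on 1 of 7 cells.

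**Figure D3:**
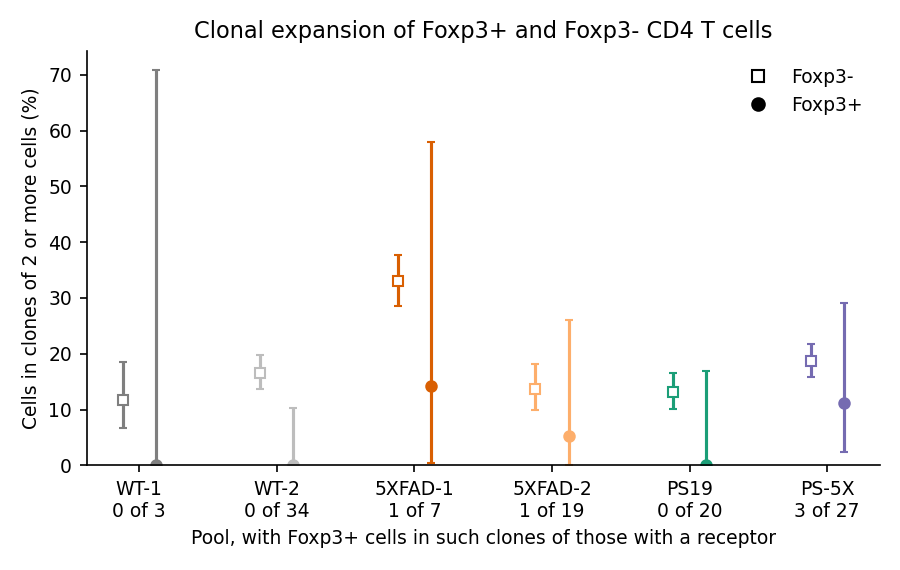
Percent of cells with a receptor that belong to clones of 2 or more cells (y axis) in each pool (x axis, with the number of such Foxp3+ cells), for Foxp3- cells (squares) and Foxp3+ cells (circles), with Clopper-Pearson 95% intervals. The circle lies under the square in each of the 6 pools, and the interval of WT-1 with 3 cells reaches 70.8%.

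The 5 expanded Foxp3+ cells all came from pools with amyloid. Their share was 10.2 ± 4.58% (SD, n = 3) with amyloid and 0% in the 3 pools without, 10.2 percentage points apart (p = 0.1 by an exact two-sided permutation of the pools, the smallest this design allows). Between WT-2 and 5XFAD-2 the difference was 5.26 points and among the other 4 pools 12.7. It rests on few cells: at clones of 3 or more cells it was 4.76 points (exact p = 1), and with clones rebuilt from the bases of both CDR3s and their V genes 7.20 points (exact p = 0.4).

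Other measures of the receptors gave no difference past a threshold. Of 21 TRBV genes tested on numbers of clones, 0.0% passed an adjusted p of 0.05 in edgeR, and 1 had an unadjusted p under 0.05: TRBV3 was used by 11 of 105 Foxp3+ clones (10.5%) and by 5.35% of Foxp3- clones (log2 1.07 ± 0.54, adjusted p = 0.511). TRBV19, the gene used most by Foxp3+ clones, was found in 16 of 105 (15.2%) against 10.1%. A second α chain was read in 13.2 ± 10.3% of Foxp3+ cells with both chains and in 12.7 ± 4.10% of Foxp3- cells (exact sign-flip permutation p = 0.9375, n = 6 pools). PS-5X had 31.6% where the next pool had 14.3%, and without PS-5X the difference turned from 0.513 to -3.84 points. The β chain CDR3 averaged 14.3, 13.5, 13.6, 13.9, 13.6 and 13.6 amino acids in Foxp3+ cells and 13.9, 13.8, 14.1, 14.0, 13.7 and 13.8 in Foxp3- cells. It was shorter in 5 of 6 pools (difference -0.143, exact permutation p = 0.3125), and without WT-1, whose value rests on 3 cells, the difference was -0.261 (exact p = 0.0625, the smallest for 5 pools).

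To compare gene expression, the UMIs of all cells of a class in a pool were added up, and the 12 sums were tested in edgeR with the pool as a block (Benjamini-Hochberg adjusted p of 0.05). Cells were separated by their own Foxp3 count, so a gene that goes with Foxp3 from cell to cell must differ between the classes, and the tests say how evenly it did so over the pools. Of 8234 genes tested, 596 (7.24%) passed, 264 higher (3.21%) and 332 lower (4.03%) in Foxp3+ cells. DESeq2 called 288 higher and 250 lower. With cells thinned to 3000 UMIs, edgeR could test only 4659 genes and called 65 higher and 181 lower. The median log2 difference over all genes was -0.07, and -0.18 in the thinned sums. Foxp3, Cd4, Cd8a, Cd8b1 and Trdc, which the rule reads, stayed out of the tests.

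Genes of regulatory T cell identity were higher in Foxp3+ cells as a group. Of 25 on the list, 23 were tested, 17 rose and none fell, and their median log2 difference was 2.11. Ikzf2 stood at 434, 362, 721, 741, 909 and 553 CPM in Foxp3+ cells and at 62.3, 35.4, 67.4, 76.8, 42.0 and 58.8 CPM in Foxp3- cells. Every Foxp3+ sum lay above every Foxp3- sum (log2 3.46 ± 0.19 SE, adjusted p = 4.04e-13), a pattern without overlap that 5.05% of tested genes showed. Il2ra stood at 128, 122, 87.9, 105, 146 and 274 CPM against 28.4, 27.7, 27.4, 37.3, 13.4 and 19.1 CPM. These groups did not overlap either, and PS-5X was the highest (log2 2.55 ± 0.28, adjusted p = 5.59e-07).

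Further identity genes ranged from nearly absent in Foxp3- cells to present in both classes. Lrrc32 encodes GARP, which holds latent TGF-β on the cell surface. It stood at 0, 126, 132, 98.4, 273 and 249 CPM in Foxp3+ cells and between 0 and 9.20 CPM in Foxp3- cells (log2 6.23 ± 0.44, adjusted p = 1.14e-10), with UMIs in 35 Foxp3+ cells and 12 Foxp3- cells. WT-1 had no Lrrc32 UMI in either class, and there 1 UMI in the Foxp3+ sum is worth 25.5 CPM. Itgb8, an integrin chain that activates TGF-β, had UMIs in 13 Foxp3+ cells (log2 3.06 ± 0.88, adjusted p = 0.0271), and its call was lost without PS19 (log2 2.25) or without WT-2 (2.48). Nrp1, the semaphorin coreceptor neuropilin, averaged 138 ± 54.1 CPM against 27.6 ± 12.1 (SD, n = 6 pools each) and was higher in 6 of 6 pools. Ikzf4, the Helios relative Eos, averaged 39.7 ± 29.5 CPM against 5.14 ± 2.00, higher in 5 of 6 pools, with no UMI in the 9 Foxp3+ cells of 5XFAD-1.

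Of 18 tested genes of TNF receptors and costimulation 7 rose (median log2 0.55), and Cd226, an activating receptor, fell by 0.97 on the log2 scale. Tnfrsf4 stood at 332, 541, 862, 308, 1062 and 954 CPM in Foxp3+ cells and at 148, 120, 180, 123, 107 and 245 CPM in Foxp3- cells. The groups did not overlap, although 5XFAD-2 came close at 308 (log2 2.11 ± 0.21, adjusted p = 7.61e-08). Tnfrsf9, the activation receptor 4-1BB, averaged 142 ± 109 CPM against 17.0 ± 8.21 (log2 3.18 ± 0.33), and Tnfrsf18 averaged 400 ± 63.2 against 165 ± 24.7 (log2 1.29 ± 0.16). The signalling adaptor Traf1 (log2 0.86) and the NF-κB subunit gene Nfkb2 (0.96) rose as well. Icos, which rises on activated T cells, averaged 699 ± 226 CPM against 472 ± 76.8 and did not pass (log2 0.54, adjusted p = 0.113); it passed without 5XFAD-1 (log2 0.82).

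Inhibitory receptors split. Ctla4 stood at 332, 746, 563, 1024, 1297 and 875 CPM in Foxp3+ cells and at 324, 179, 409, 219, 149 and 199 CPM in Foxp3- cells. It was higher in 6 of 6 pools, but by little in WT-1, and the groups overlapped there (log2 1.81 ± 0.25, adjusted p = 1.68e-05). Tigit, which binds the poliovirus receptor, averaged 250 ± 77.1 CPM against 102 ± 64.6 (log2 1.57 ± 0.23). The exhaustion-linked factor Tox (log2 0.75) and Lag3 also passed, which made 4 of 10 tested genes, and the list's median was 0.15. Lag3 stood at 440 CPM in the 9 Foxp3+ cells of 5XFAD-1 and between 0 and 42.5 CPM in the other pools (log2 1.26 ± 0.36, adjusted p = 0.0249; 0.349 in DESeq2). Pdcd1, the gene of PD-1, averaged 96.9 ± 65.3 CPM against 151 ± 90.0 (log2 -0.43 ± 0.25, adjusted p = 0.408).

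**Figure D4:**
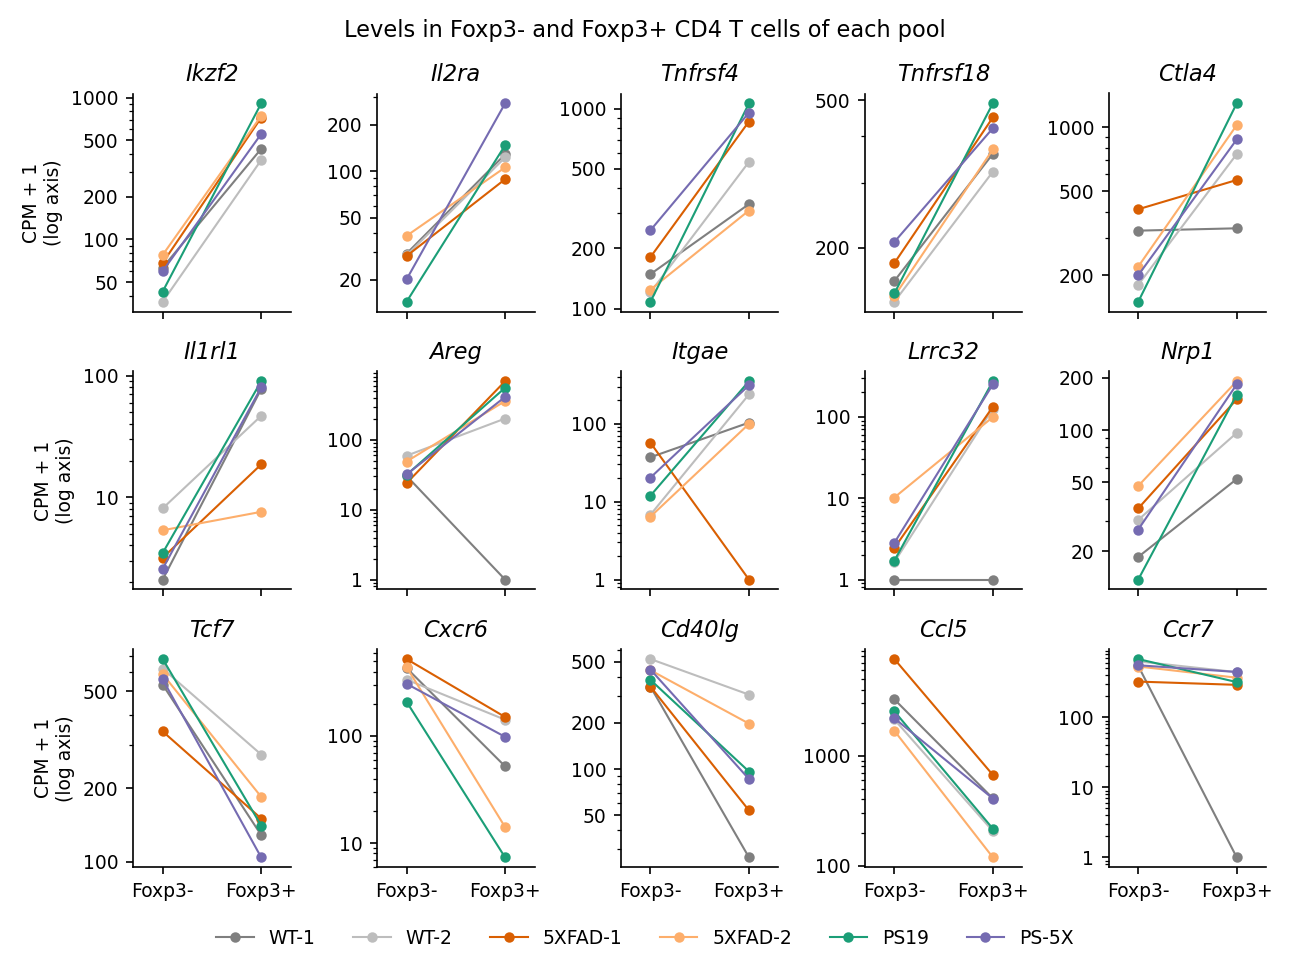
CPM + 1 (y axis, log scale) of 15 genes in the Foxp3- and Foxp3+ sums of each pool (x axis), with a line joining the sums of a pool. Ikzf2, Il2ra, Tnfrsf4, Tnfrsf18 and Nrp1 rise in all 6 pools, Tcf7, Cxcr6, Cd40lg and Ccl5 fall in all 6, and single pools depart for Areg (WT-1) and Itgae (5XFAD-1).

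Among suppressive and effector molecules, 9 of 18 tested genes rose and none fell (median log2 1.06). Areg stood at 0, 202, 695, 361, 559 and 413 CPM in Foxp3+ cells and at 29.5, 58.6, 23.1, 48.2, 30.7 and 31.1 CPM in Foxp3- cells. WT-1 with 3 cells had none, the highest value, of 5XFAD-1, came from 1 of its 9 cells with 79 UMIs, and outside WT-1 each Foxp3+ sum lay above all Foxp3- sums (log2 3.33 ± 0.32, adjusted p = 7.48e-08). Ebi3, a subunit of interleukins 27 and 35, averaged 32.8 ± 21.4 CPM against 3.66 ± 1.79 (log2 3.38 ± 0.61). Il10 was read in only 8 Foxp3+ cells, at 0, 11.4, 70.3, 0, 63.6 and 24.3 CPM against 0 to 6.49 CPM (log2 3.13 ± 0.73, adjusted p = 0.00558), and its call was lost without PS19 (log2 2.49). Entpd1, the ectoenzyme CD39, did not pass (27.2 ± 20.1 against 35.7 ± 15.5 CPM, log2 -0.04 ± 0.37, adjusted p = 0.985), and neither did Gzmb (87.8 ± 99.2 against 146 ± 180 CPM) or Penk (33.2 ± 59.0 against 11.4 ± 11.3 CPM).

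Genes of the tissue regulatory program rose in 9 of 17 tested and fell in none (median log2 0.95). Il1rl1 stood at 76.6, 45.7, 17.6, 6.56, 89.0 and 79.0 CPM in Foxp3+ cells and between 1.09 and 7.08 CPM in Foxp3- cells. It was higher in 6 of 6 pools, least in 5XFAD-2, where 1 of 22 cells had a UMI (log2 3.88 ± 0.62, adjusted p = 0.000105). Klrg1 averaged 127 ± 128 CPM against 19.9 ± 9.90 (log2 2.54 ± 0.35), with none in 5XFAD-2. Il1r2, a decoy receptor for interleukin 1, averaged 45.5 ± 42.3 CPM against 1.73 ± 3.04 (log2 5.24 ± 0.77). The factors Batf (log2 0.96) and Rora (0.95) were higher in 6 of 6 pools, as 2.53% of all tested genes were. Gata3, a factor of type 2 and tissue regulatory cells, passed narrowly (179 ± 101 against 113 ± 10.8 CPM, log2 0.74 ± 0.23, adjusted p = 0.0458) and not in DESeq2, nor without WT-2, PS19 or PS-5X (log2 0.69, 0.57 and 0.56). Ccr8 was higher in 4 of 6 pools (log2 1.33 ± 0.31, adjusted p = 0.00561), not called without PS-5X (1.10) or by DESeq2 (adjusted p = 0.15).

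With cells thinned to 3000 UMIs, 12 of 18 identity genes, 4 of 13 suppressive genes and 3 of 14 tissue program genes were called higher, beside 65 of all 4659 genes tested. Tigit, Capg, Il10, Ccr8 and Gata3 no longer passed. Of TNF receptor and costimulation genes 4 of 17 were then called higher and 1 lower (median log2 0.28), and of inhibitory receptors 1 of 6 (median -0.04). Without WT-1 the counts were 17 of 24, 9 of 18 and 10 of 18.

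Chemokine receptors and integrins moved in both directions, 6 higher and 6 lower of 23 tested. Itgae, the αE chain that pairs with β7 to bind E-cadherin, stood at 102, 236, 0, 98.4, 350 and 310 CPM in Foxp3+ cells and at 36.1, 5.79, 55.9, 5.41, 10.9 and 19.3 CPM in Foxp3- cells. It was higher in 5 of 6 pools, with no UMI in the 9 cells of 5XFAD-1 (log2 3.55 ± 0.48, adjusted p = 1.13e-05). Its partner Itgb7 rose as well (log2 0.73), and so did Ccr4 (2.31), Ccr6 (2.68) and Ccr10 (3.45), receptors that guide cells to barrier tissues. Cxcr6, a receptor of tissue-resident T cells, stood at 51.1, 141, 149, 13.1, 6.36 and 97.3 CPM in Foxp3+ cells and at 430, 335, 522, 438, 208 and 306 CPM in Foxp3- cells. The groups did not overlap, and it was lower in 6 of 6 pools, as 9.28% of tested genes were (log2 -2.25 ± 0.29, adjusted p = 6.68e-06). Gpr183, which senses oxysterols, fell by 1.38 on the log2 scale, Itga4 by 0.82 and Itgb2 by 0.62, and Ccr9 had no UMI in Foxp3+ cells. The wider list of tissue residency genes had 1 higher, Itgae, and 6 lower of 15.

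Genes of naive and central memory cells were lower: 10 of 16 fell, none rose, and the median log2 difference was -0.99. With cells thinned to 3000 UMIs, 5 of 16 were called lower (median -0.57), and Il7r lost its call (adjusted p = 0.188). Tcf7, a factor of naive and stem-like T cells, stood at 128, 274, 149, 184, 140 and 103 CPM in Foxp3+ cells and at 530, 618, 341, 586, 676 and 558 CPM in Foxp3- cells, without overlap (log2 -1.74 ± 0.20, adjusted p = 7.52e-07). Lef1, Satb1, Bach2 and Il7r, the interleukin 7 receptor gene, fell with it. Ccr7, the receptor that guides T cells to lymph nodes, did not pass: it averaged 310 ± 164 CPM against 543 ± 122 (log2 -0.72 ± 0.23, adjusted p = 0.054; 0.036 without WT-1). In the response to interleukin 2, Il2ra and the kinase gene Pim1 rose (log2 0.82), while the survival gene Bcl2, Pim2, Myc, Ccnd2 and Ccnd3 fell (log2 -1.72, -2.10, -1.10, -0.79 and -0.95), 2 higher and 5 lower of 17.

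Cytokines of helper T cells were lower in Foxp3+ cells in 9 of 11 tested genes (median log2 -1.71), in DESeq2 in 5 of 11. Cd40lg, the helper signal to B cells and macrophages, stood at 25.5, 305, 52.8, 197, 95.3 and 85.1 CPM against 343, 521, 344, 440, 380 and 444 CPM, without overlap (log2 -1.70 ± 0.23, adjusted p = 1.28e-05). Il2 was read in 3 Foxp3+ cells and 364 Foxp3- cells (log2 -2.84 ± 0.47). Ifng averaged 82.6 ± 96.3 CPM against 269 ± 80.7 (log2 -1.58, adjusted p = 0.00255; 0.074 in DESeq2). Il17a had 1 UMI in Foxp3+ cells against 81.97 CPM in Foxp3- cells, 70.5-fold lower with a counting interval of 12.6 to 2786. That interval takes UMIs as independent, though they lay in only 29 of 2794 Foxp3- cells, so it is too narrow. A lower share of cells with Il17a cannot be read from it (adjusted p 0.21 in DESeq2). Of the helper lineage factors, Tbx21, Eomes, Runx3 and Bhlhe40 fell and Rora and Gata3 rose, of 16 tested.

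Genes of cytotoxic cells were the lowest group, with 9 of 10 tested lower and a median log2 difference of -2.78, or -2.48 with Klrc1, which had no UMI, set at its bound. Ccl5 stood at 409, 206, 668, 118, 216 and 407 CPM in Foxp3+ cells and at 3255, 2135, 7570, 1685, 2533 and 2191 CPM in Foxp3- cells (log2 -3.27 ± 0.18, adjusted p = 4.04e-13). 5XFAD-1 was the highest pool in both classes, and the classes did not overlap. Gzmk averaged 21.0 ± 41.7 CPM against 176 ± 134 (log2 -3.21 ± 0.36) and lay in 4 Foxp3+ cells. Gzma had 3 UMIs in Foxp3+ cells and was 61.7-fold lower (counting interval 21.1 to 299, again with UMIs taken as independent). Zeb2, a factor of terminal effector cells, had none against UMIs in 252 Foxp3- cells, at least 10.5-fold lower with a floor of 3 counts over the group. A gene without a UMI in Foxp3+ cells could enter the test only through the Foxp3- sums. All 13 such genes were called, so their calls are descriptions. Zeb2 and Trbv17 are among them, and so are Klrc1, Il17f and Ccr9, which count as lower in their lists. Ccl4, St3gal6 and the SLAM receptor gene Slamf7 were further large falls (log2 -5.31, -3.54 and -2.81).

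The largest rises beside these were Ncmap (log2 3.62 ± 0.60, in 14 Foxp3+ cells), the tetraspanin gene Cd81 (2.68 ± 0.39), Lclat1, an acyltransferase of cardiolipin (2.47 ± 0.36), and the phosphatase gene Phlpp1 (2.33 ± 0.45). Each was higher in 6 of 6 pools, which the rule for naming them required. Trbv17 had no UMI in Foxp3+ cells and was at least 13.7-fold lower in UMIs, which lay in 64 Foxp3- cells. In clones, TRBV17 was used by 0 of 105 Foxp3+ and 30 of 2206 Foxp3- clones, a difference that did not pass (edgeR adjusted p = 0.511). Interferon genes differed little as lists. Of 21 type I response genes 2 rose and 1 fell (median log2 0.06). The 2 were Ifi27l2a (2325 ± 1300 against 863 ± 315 CPM) and Oas1a (93.5 ± 40.3 against 33.1 ± 10.9 CPM). Of 23 interferon γ and antigen presentation genes 2 rose, Iigp1 and Gbp3 (median -0.01). Thinned to 3000 UMIs, the interferon γ list had 0 higher and 2 lower of 23 (median -0.08) and the type I list 1 higher of 15 (median -0.66), so the calls of the first list and the median of the second turned in direction. Of 17 early T cell receptor response genes 2 rose, Tnfrsf9 and Batf, and 3 fell, Myc, Dusp2 and Spry1.

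**Figure D5:**
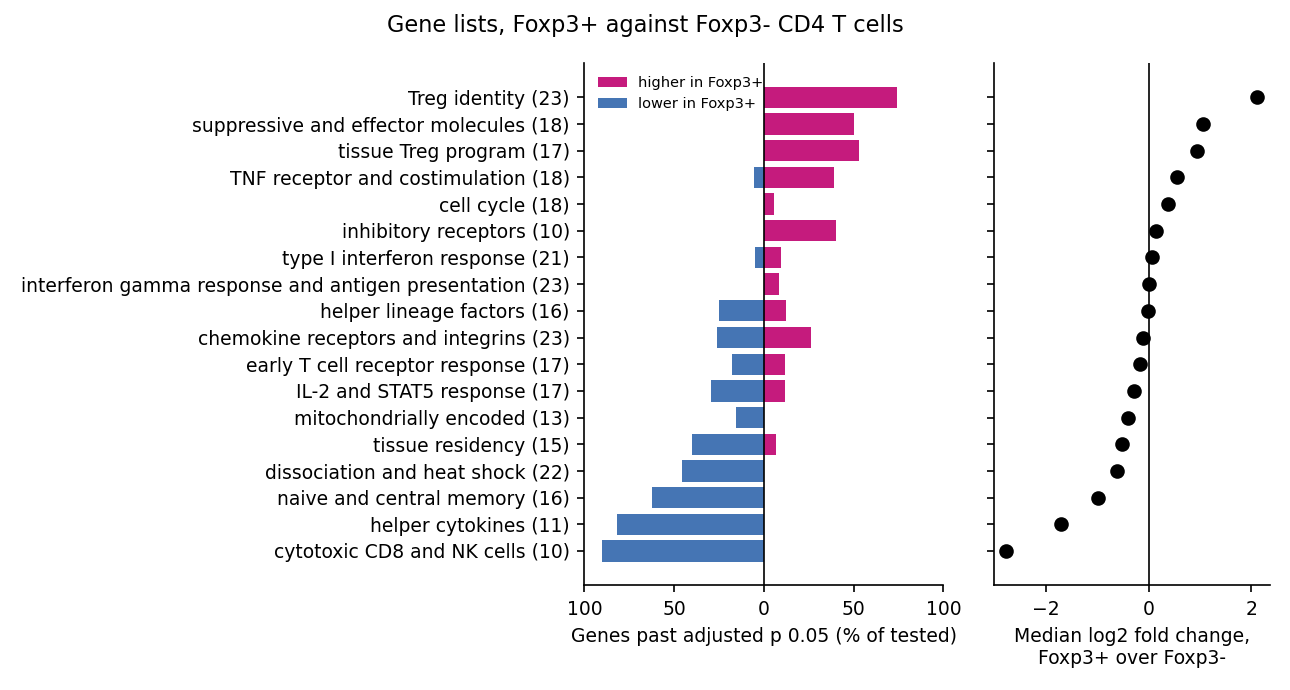
For each gene list with 10 or more tested genes (number tested in brackets), the left panel shows the percent of tested genes past an adjusted p of 0.05 that were higher (right bars) or lower (left bars) in Foxp3+ cells, and the right panel the median log2 fold change. Treg identity has the highest median, 2.11, and cytotoxic CD8 and NK genes the lowest, -2.78; all genes tested have -0.07.

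Markers of other cells and of handling moved with these differences in places. Summed over the 15 cytotoxic and NK genes, Foxp3+ sums ran from 272 to 1384 CPM and Foxp3- sums from 2606 to 9684, with Klrb1c, Klra8, Klra7 and Klrc1 at 0 in Foxp3+ cells. The 10 B cell genes summed to 834, 488, 610, 528, 617 and 571 CPM in Foxp3+ cells and to 155, 200, 144, 1820, 197 and 139 CPM in Foxp3- cells, higher in Foxp3+ cells in each pool but 5XFAD-2. Of these genes 6, Ms4a1 among them, were at 0 in Foxp3+ cells, and Ighm was called higher (log2 1.25) of the 3 tested. Microglial genes ran from 228 to 412 against 236 to 371 CPM with 8 of 14 at 0. γδ genes ran from 0 to 82.0 against 25.2 to 88.6 CPM, parenchymal genes from 37.9 to 106 against 90.3 to 138, and red cell genes were at 0 in Foxp3+ cells. Of 22 dissociation and heat shock genes 10 were lower in Foxp3+ cells (median log2 -0.63), though their sums overlapped at 10807 to 16540 and 12037 to 18243 CPM. Of 13 mitochondrially encoded genes 2 were lower (median -0.40), and of 18 cell cycle genes 1, Ccnb2, was higher (log2 1.90; sums of 979 to 7887 against 1363 to 2712 CPM). The part of these in the results above was not tested.

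Amyloid did not change a gene of Foxp3+ cells past the threshold. Of 3202 genes that 6 sums could test, 0 (0.0%) passed in edgeR with tau as a second term, 87 (2.72%) had an unadjusted p under 0.05, and DESeq2 called 0. On simulated counts of this design edgeR recovered 9.44% of 2-fold and 84.1% of 4-fold changes, so 2-fold changes were mostly out of reach. The gene with the smallest p was Cxcl10, a chemokine induced by interferon γ. It stood at 0, 11.6, 122, 82.6, 38.6 and 217 CPM (log2 2.79 ± 0.52, adjusted p = 0.128) in 16 cells. The 3 pools with amyloid all lay above the 3 without, but Cxcl10 was picked by its p, and the share of all genes with this pattern was not counted. Cxcl10 passed without the gene filter (adjusted p = 0.0026) and with the sequencing run as a block and WT-1 left out (0.000477, with 1 residual degree of freedom), and not with the block alone (0.218).

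The next rises by p were Rrad (log2 1.48), Trbv13-2 (1.54), Rilpl2 (1.29) and the AP-1 subunit gene Jun (1.31), and the falls were P4ha1 (-1.82), Gzmb (-2.16), Trav14n-3 (-3.78), Rfx1 (-1.69) and Cd200r1 (-1.59), each with an adjusted p of 0.921 or 0.999. Among identity genes, Il2ra differed by 0.18 ± 0.39, Ikzf2 by 0.25 ± 0.33, Tnfrsf4 by 0.11 ± 0.33 and Ctla4 by 0.05 ± 0.30 on the log2 scale. The 19 tested identity genes had a median of 0.10, beside 0.03 over all genes. Leaving out 5XFAD-1, PS19 or PS-5X gave 1 called gene each.

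In Foxp3- cells of the same pools, amyloid changed 0.0% of 10352 genes in edgeR, with 405 (3.91%) at an unadjusted p under 0.05, and DESeq2 called 4. With the sequencing run as a block 6 passed, all higher, among them Ly6a (log2 1.26, adjusted p = 0.0346). The amyloid effect differed between the classes for 13 of 8234 genes (0.158%), 3 higher (0.0364%) and 10 lower (0.121%) in Foxp3+ than in Foxp3- cells. At an unadjusted p under 0.05 stood 270 (3.28%), and DESeq2 called 0. Gzmb differed most clearly by p (log2 -3.73 ± 0.52, adjusted p = 6.28e-09): it stood at 0, 168, 26.4, 0, 242 and 91.2 CPM in Foxp3+ cells, in 13 cells, and at 234, 30.6, 476, 31.9, 31.4 and 71.6 CPM in Foxp3- cells. Without WT-2 this difference was -2.14 (adjusted p = 0.528). Itgae differed by -1.92 ± 0.46 (adjusted p = 0.0275), and with the sequencing run as a block the adjusted p was 0.936. Egr1, an immediate early gene, stood at 25.5, 160, 44.0, 636, 44.5 and 413 CPM in Foxp3+ cells, in 18 cells, and at 224, 264, 184, 312, 141 and 127 CPM in Foxp3- cells (log2 1.89 ± 0.44, adjusted p = 0.0228). Its call was lost without 5XFAD-2 (log2 1.28), PS-5X (1.12) or PS19 (1.12). The number of genes was 20 without WT-1, 6 without WT-2, 7 without PS19 and 7 without PS-5X, and no one of the 13 kept its call through all leave-one-out fits.

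Cell cycle RNAs were lower in Foxp3+ cells of the pools with tau. Of 3202 genes 6 (0.187%) passed and 215 (6.71%) had an unadjusted p under 0.05. Of the 6, 2 were higher with tau (0.0625%) and 4 (0.125%), all cell cycle genes, lower. Birc5, which encodes the mitotic protein survivin, stood at 678, 100, 65.8, 82.6, 0 and 0 CPM and Ccnb2, a mitotic cyclin, at 357, 92.7, 141, 110, 0 and 0 CPM (CPM scaled over the Foxp3+ sums alone). Birc5 and Ccnb2 were at least 12.5-fold and 12.7-fold lower with tau at a floor of 3 counts over the group (edgeR adjusted p = 0.046 and 0.0197). Stmn1, a tubulin regulator, had 2 UMIs with tau and 161 without, and Ube2c, which tags mitotic cyclins for breakdown, 2 and 59. Without WT-1, Birc5 (log2 -6.86) and Ube2c (-3.79) lost their calls, while the other 4 of the 6 genes kept theirs. Of 14 tested cell cycle genes 4 fell and the median log2 difference was -3.58, where all genes had 0.00.

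These RNAs lay in few cells. Cells with UMIs of 10 or more of the 18 cell cycle genes were 7 of 120 Foxp3+ cells (5.83%, 2.38 to 11.6) and 54 Foxp3- cells (1.93%). Of the 7, WT-1 held 1, WT-2 3, 5XFAD-1 2 and 5XFAD-2 1, so 7 of 70 Foxp3+ cells without tau and 0 of 50 with tau, which allows up to 6%. Among Foxp3- cells the shares were 2.00% without tau and 1.85% with it. The 7 cells each held 151 to 287 cell cycle UMIs, where no other member had over 40, and together 63.6% of the 2180 cell cycle UMIs of all members. They were deep, with a median of 19716 UMIs against 5708, and none had a second β chain. Without them 2 genes passed, both higher with tau, and none of the cell cycle genes. Trbv26 kept its call (adjusted p = 0.0396), and Tent5a lost it (log2 1.69, adjusted p = 0.392).

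With all members, the 2 genes higher with tau were Tent5a, an RNA polyadenylating enzyme, and Trbv26. Tent5a stood at 0, 85.0, 75.2, 75.7, 296 and 294 CPM (log2 2.00 ± 0.40, edgeR adjusted p = 0.0481), with UMIs in 43 cells. Trbv26, the V gene of PS-5X clone 1, was read in 4 cells of PS19 and PS-5X and in no Foxp3+ cell without tau, at least 24.5-fold higher. With the sequencing run as a block neither passed (adjusted p = 0.132 and 0.127). Genes of identity and of the tissue program had medians of 0.46 and 0.74 with none called: Itgae differed by 1.55 ± 0.52, Gata3 by 1.08 ± 0.37 and Il2ra by 0.87 ± 0.39 on the log2 scale (adjusted p = 0.415, 0.415 and 0.718). The number of genes called was 16 without 5XFAD-2 and 2 without PS-5X, and 0 when only cells with 2 or more Foxp3 UMIs were used, and none of the 6 kept its call in every leave-one-out fit. Tau was carried by 1 pool of PS19 and 1 of PS-5X, both in 1 sequencing run.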

How the data were processed

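The submitters' processing notes list Cell Ranger 6.0.1, GRCm38 and mm10. Per the file headers, the deposited matrix holds the authors' UMI counts per gene and barcode for 6 pools, and the deposited contig table gives receptor chains, the authors' clonotypes and, as its other column used, the pool of each barcode suffix. The consensus and clonotype tables were not used. No per-sample column was left unmapped (0).

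Cells were classed by single-cell counts as the report states. No doublet caller was run; barcodes with 2 or more β chains were left out as an alternative. Sums of each class within a pool (26373 to 4296026 UMIs) went into the quasi-likelihood F test of edgeR 4.0.16 (R 4.3.3) after filterByExpr and TMM scaling, with pool as block between classes (5 residual degrees of freedom, biological coefficient of variation 19.6%) and amyloid and tau as terms within a class (3). Shares were tested in Python 3.11.15 by exact permutation over pools. Clones were the authors' clonotypes within a pool. A second α chain or CDR3 length used cells with the chain read.

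Genes were named as the 10 largest rises and 10 largest falls among called genes of at least 20 CPM with 1 direction in all pools or pairs, with fewer than 5 of these the 5 smallest p in each direction, plus 34 set genes (1 further set gene is not reported here); others named in the text come from the 23 gene lists. The members, lists and rule were chosen with earlier results of these data known.

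Tested on simulated counts, edgeR recovered 39.2% of 2-fold and 91.1% of 4-fold changes between the classes, 14.8% and 83.2% for tau, and 0.552% and 33.2% for the difference of the amyloid effects. Alternatives were DESeq2 1.42.0, its size factors in edgeR, no filter beyond 1 UMI, stricter cell limits, 2 or more Foxp3 UMIs, thinning, a block, each pool left out, and cells with shared receptors or 2 β chains left out; leaving out cycling cells and small pools was chosen after seeing the data. The labels tie WT-2 and 5XFAD-2 to one run. Deviations from the group mean of pools of the same run correlated at -0.0195 over 3202 genes in Foxp3+ and 0.415 over 6065 genes in Foxp3- cells.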

Additional observations from a re-analysis of the deposited data

Results flagged for a closer look

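Of 52 sets of pool values tested for a pool far from the others, 7 stood out; chance alone flags about 1 in 20 such groups. The log2 difference between Foxp3+ and Foxp3- cells was far below the other pools for Ikzf4 (-3.10) and Itgae (-5.83) in 5XFAD-1 and for Ebi3 (-2.92) and Areg (-4.93) in WT-1. Each of these 4 reflects no UMI in the Foxp3+ sum of a pool with 9 or 3 members. Among pools without tau, WT-1 was far from the others for Tent5a (0 CPM), Birc5 (678 CPM) and Ube2c (321 CPM), where 1 of its 3 members was a cell with many cell cycle UMIs.

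The amyloid effect differed between Foxp3+ and Foxp3- cells, by a test of the difference itself, for 13 genes. Higher in Foxp3+ cells were Trav10 (log2 10.24), Ly6c2 (4.26) and Egr1 (1.89). Lower were Trbv12-1 (-10.53), Trav9-2 (-9.55), Trav4-3 (-8.60), Trav12-2 (-4.82), Hist1h2ae (-4.20), Trav14n-3 (-4.12), Gzmb (-3.73), Cdk6 (-2.31), Hist1h1b (-2.26) and Itgae (-1.92). The 6 receptor segments among them lay in 4 to 6 Foxp3+ cells each and were at 0 in several pools, so their fitted values are no measure of size.

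Of 1723 kept barcodes without a UMI of Cd4, Cd8a, Cd8b1 or Trdc, 59 held Foxp3 (3.42%), against 0.704% of CD8 T cells. They numbered 2, 13, 1, 10, 7 and 26 in the pools, had a median of 3 Foxp3 UMIs as the members did, and a median of 4337 UMIs.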

How the results depend on the processing

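Of 47 named genes in the comparison of Foxp3+ with Foxp3- cells, 32 kept their direction and their side of the threshold under every setting that gave a value; thinning gave one for 38 of the 47 and the fit with no pool block for 36. Signs turned for genes that had not passed: Entpd1 (-0.04; 0.072 at 2 or more Foxp3 UMIs, 0.030 with stricter cell limits, 0.30 in pools with 20 or more members, 0.026 without barcodes with 2 β chains, 0.23 without shared receptors, -0.46 to 0.26 with a pool left out), Gzmb (0.37; -1.17 in DESeq2, -0.36 with no pool block, -1.80 thinned, -0.40 to 1.20 with a pool left out; called only in pools with 20 or more members, at 1.66, adjusted p = 0.0195) and Penk (1.48; -0.17 at 2 or more Foxp3 UMIs, -0.75 to 2.33 with a pool left out). For the difference of amyloid effects Hist1h2ae (-4.20) ran from -5.24 to 0.30 with a pool left out, the last without WT-2.

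The count of 596 genes of 8234 tested became 246 of 4659 after thinning, and 450 to 611 with a pool left out. The thinned sums held fewer cells and UMIs, and 208 genes were shared. For amyloid in Foxp3+ cells, 0 became 16 without the gene filter, 26 with a replicate block and without WT-1 (1 residual degree of freedom), and 0 to 1 with a pool left out. For tau, 6 became 0 at 2 or more Foxp3 UMIs, 33 without the filter, 116 with the replicate block and without WT-1, 2 without cycling cells, and 2 to 16 with a pool left out. For amyloid in Foxp3- cells, 0 became 4 in DESeq2, 120 without the filter, 6 with the replicate block, 1 without shared receptors, and 0 to 1 with a pool left out. For the difference of amyloid effects, 13 became 0 in DESeq2, 21 with the replicate block and without WT-1, 5 without cycling cells, and 6 to 20 with a pool left out. The cause of these shifts was not tested. The block by sequencing run otherwise moved no count past 1.5 times (9 genes for tau, 13 for the difference).

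The difference in the Foxp3+ share by amyloid (-0.135 points) was 0.276 thinned, 0.285 with Foxp3+ barcodes without Cd4, 0.134 as a replicate block and -1.34 to 0.853 with a pool left out. By tau (0.0483) it was -0.105 without shared receptors and -0.628 to 0.837 with a pool left out. The difference in expanded cells was -6.68 without shared receptors and -13.7 to -11.5 with a pool left out. For 2 α chains (0.513) it was -0.0794 without barcodes with 2 β chains and -3.84 to 3.57 with a pool left out. Depth limits these results most in WT-1 and 5XFAD-1, with 3 and 9 members.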

Other observations

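Some cells outside the rule held genes it or its markers use. Among Foxp3- cells, 53 (1.90%) held both Ikzf2 and Il2ra, 5, 8, 14, 10, 5 and 11 in the pools. A further 47 barcodes with Cd4, Cd8 and Foxp3 UMIs had a median of 12188 UMIs, and 8 of them had 2 β chains. Of 13 tested genes without a UMI in Foxp3+ cells, all of them called, Siglech, Pld4 and Mpeg1 lay in 20, 24 and 21 Foxp3- cells. These are genes of plasmacytoid dendritic and myeloid cells, and the 3 were chosen after their values were seen.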
